A study of Rattus norvegicus with 3 samples.

Results

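Lactoperoxidase (Lpo), a second heme peroxidase (Mpo) and the oxidases that supply hydrogen peroxide (Duox1, Duox2, Nox1, Nox4, Cyba and Cybb) were described in rat parotid, submandibular and sublingual gland. The 8 genes were found by their names in the array files, after removal of the suffix for provisional annotation that 1 of them (Lpo) carried. Each had 1 probe, so the set holds 8 of 41012 probes and 8 of 35737 gene names. The arrays carried RNA from pieces of parotid, submandibular or sublingual gland of male Wistar rats, 10 weeks of age and with no treatment named, with 1 Agilent one-colour array per gland. The series' design names 3 rats, and no source used here ties an array to an animal or says whether RNA was pooled. There were therefore no replicates, no test was made and no p-value is given: each value describes 1 array.

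Lactoperoxidase is a secreted enzyme of milk, tears, airway fluid and saliva that uses hydrogen peroxide to oxidise thiocyanate to the antimicrobial hypothiocyanite. The peroxide can come from the dual oxidases, membrane enzymes that release it on the luminal side of epithelia and need a maturation factor (Duoxa1 for Duox1, Duoxa2 for Duox2) to reach the cell surface. The other NADPH oxidases make superoxide or peroxide. Cybb is the catalytic subunit of the phagocyte enzyme, Cyba is the small subunit it shares with Nox1 and Nox4, and Mpo is the peroxidase stored in neutrophil granules.

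A level is the log2 of a signal minus the 75th percentile of its array, and is compared only with the same probe on another array. A probe was called present where the scanner software flagged it as well above background. Where the dimmer side was not, the fold was taken against the lowest level flagged as present on that array (-3.43 parotid, -3.58 submandibular, -3.74 sublingual) or the probe's own level if that was higher, and is written "at least". Between 52.2% and 54.7% of gene names were present on each array, no spot was saturated, and repeat spots of a probe had a median SD of 0.08 to 0.09 in log2 units, a figure that leaves out variation between animals and between labellings. The markers separated the parotid from the other arrays. All 8 serous products probed exceeded either other array by 4-fold or more in the parotid. Of 7 mucous products, 6 were at least 4-fold lower there. Of all gene names compared with the array labelled submandibular, 3.13% passed 4-fold toward the parotid and 2.55% away from it. Against the sublingual array the shares were 2.76% and 2.65%. The marker lists were chosen with earlier results of these data known, so this separation is not an independent check of the parotid label. Mucous products did not separate the other arrays from each other, since 0 of 7 differed by 4-fold between them (median -0.26), so the sublingual label was not tested by them. Of 9 granular duct products, the usual mark of a male submandibular gland, 0 exceeded the parotid by 4-fold on the array with that label, which is therefore called submandibular-labelled. In RNA from gland pieces, fewer cells of a type and less RNA per cell cannot be told apart.

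Among the 8 genes, 3 differed by at least 4-fold between the parotid and the other arrays. Lpo and Duox1 were higher in the parotid, and Duox2 was higher on the submandibular-labelled and sublingual arrays. Cyba and Cybb differed by less than 2-fold in every pair of arrays, and Mpo, Nox1 and Nox4 were not well above background on any array. Of 5 members compared between the parotid and submandibular-labelled arrays, 2 were higher in the parotid by 4-fold or more, beside 3.13% of the 20667 gene names compared, and 1 was lower there, beside 2.55% (5.68% in either direction). Against the sublingual array the counts were again 2 higher in the parotid, beside 2.76% of 20921 gene names, and 1 lower, beside 2.65% (5.41% in either direction). Both comparisons use the same parotid array. Between the sublingual and submandibular-labelled arrays none of 5 members reached 4-fold in either direction, beside 0.221% of 19935 gene names (0.14% higher on the sublingual and 0.0803% on the submandibular-labelled array). Taken as submandibular-labelled minus parotid, sublingual minus parotid and sublingual minus submandibular-labelled, the median difference of the 5 members was -0.63, -0.83 and -0.19 respectively, and that of all gene names compared was -0.01, 0.02 and 0.02.

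**Figure D1:**
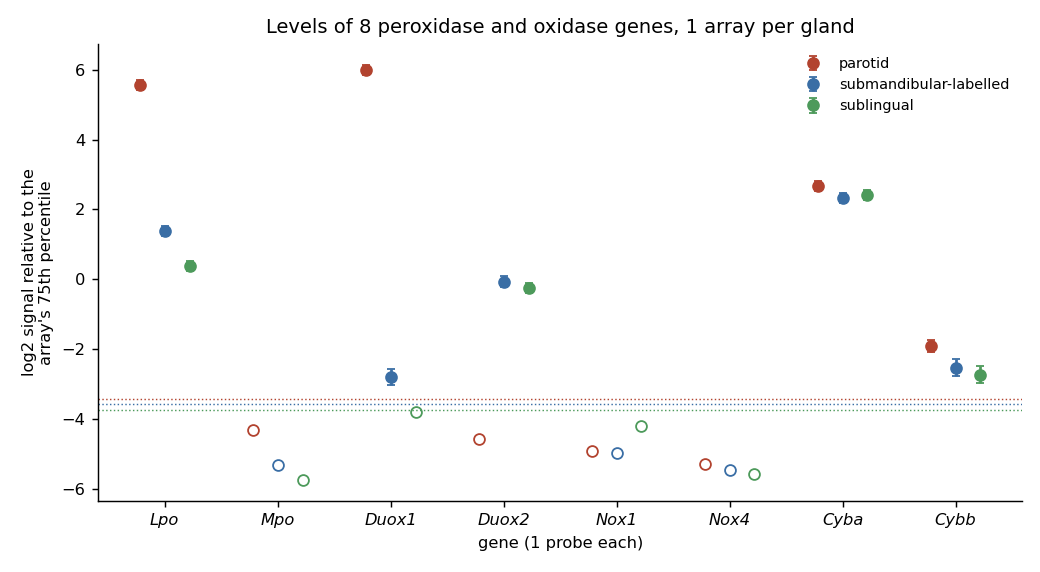
Level of each of the 8 genes (vertical axis, log2 signal relative to the array's 75th percentile) on the parotid, submandibular-labelled and sublingual arrays. Filled points are well above background with the scanner software's error as bars, open points are not, and dotted lines mark the lowest present level of each array; heights compare arrays within a gene, not genes. Lpo and Duox1 stand highest on the parotid array, Duox2 is open there and filled on both other arrays, and all 3 points of Mpo, Nox1 and Nox4 are open.

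The background split between the directions depends on scaling. Of the gene names at least 4-fold apart between the submandibular-labelled and parotid arrays, 45.0% (528, against 646) were higher on the submandibular-labelled array. The share was 56.0% (295 against 232) with normexp background correction and 62.7% (732 against 435) with arrays centred on their medians. For the sublingual array it was 48.9% (554 against 578) and 62.3% (731 against 443) with median centring. Over 17137 gene names present on all 3 arrays, median centring moved the median difference from the parotid from 0.05 to 0.36 on the submandibular-labelled and from 0.06 to 0.30 on the sublingual array.

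Lpo was present on all 3 arrays. Its processed signal was 8770 in the parotid, 592 in the submandibular-labelled and 319 in the sublingual sample, and the scanner software's error was close to 10.0% of each. As levels these are 5.56, 1.38 and 0.39. The parotid value is the highest and the sublingual value the lowest. The parotid exceeded the submandibular-labelled array by 18.2-fold (a log2 difference of -4.18, with an error of 0.20 from the software's error model). Against the sublingual array it was 36.1-fold higher (-5.17, error 0.21). In order of size, these are the 103rd of 20667 and the 65th of 20921 differences toward the parotid. The submandibular-labelled array was 1.99-fold above the sublingual array (-0.99, error 0.21), the 123rd difference in that direction among 19935. Over the processing choices tried this last difference ranged from -1.06 to -0.86, and with no second array per gland it cannot be set against the spread between animals.

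The Lpo probe lies on chromosome 10 from 76102064 to 76102123 in rn4, the build the files use. Mpo, the neighbouring gene, has its probe 8005 bases away, from 76094059 to 76094118. Its signals of 9.33, 5.74 and 4.54 on the parotid, submandibular-labelled and sublingual arrays were all below the present range, with software errors of 47.6%, 83.4% and 99.6%, so no fold can be given. The eosinophil peroxidase gene Epx, on the same chromosome from 76161546 to 76161605, was likewise not well above background on any array (levels -5.46, -5.62 and -5.80). Of these 3 linked heme peroxidase genes, therefore, the arrays detected Lpo alone. The sequence before the start of Lpo is shown because the level of this gene differed between the arrays, as did those of the dual oxidases below. It is the 250 bases upstream of the RefSeq start in the GRCr8 promoter table, minus strand, chr10:73123457-73123706, with matches to the searched motifs in capitals:
Lpo upstream: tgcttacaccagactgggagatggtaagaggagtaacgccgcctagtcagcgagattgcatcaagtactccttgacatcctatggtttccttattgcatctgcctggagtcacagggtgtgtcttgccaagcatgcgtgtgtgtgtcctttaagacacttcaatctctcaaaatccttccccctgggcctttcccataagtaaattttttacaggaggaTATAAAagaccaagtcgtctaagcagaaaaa
Both strands were searched for the TATA box as TATAAA, the CCAAT box under that spelling, the GC box as GGGCGG, an E-box as CAGCTG and the STAT site as TTCNNNGAA. The match is the TATA box, which begins 31 bases before the start. It is found in 12.9% of 33469 rat promoter windows of this length, and none of the other 4 was found here.

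Duox1 had the largest difference of the 5 members compared. Its signal was 11900 in the parotid, 33.0 in the submandibular-labelled and 17.6 in the sublingual sample, where it was not well above background. The levels were 6.0, -2.79 and -3.79, so that the parotid alone stood well clear of the detection limit. The parotid level of Duox1 exceeded the submandibular-labelled one by 442-fold (log2 difference -8.79, error 0.27) and the sublingual one by at least 853-fold (-9.74). With normexp background correction, which adds an offset to every signal, the folds were 138 and at least 178. In order, these were the 14th of 20667 and the 9th of 20921 differences toward the parotid. Between the sublingual and submandibular-labelled arrays the fold was at least 1.93 toward the latter, at signals near background. The position given for the Duox1 probe runs on chromosome 3 from 109127106 to 109127796 (rn4). Its outer limits are 691 bases apart, against 60 for the Lpo probe, so it need not match that whole stretch.

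Duox2, unlike Duox1, was lowest in the parotid. Its parotid signal was 7.83, not well above background, against 218 for the submandibular-labelled and 206 for the sublingual sample. The levels were -4.57, -0.06 and -0.24. The submandibular-labelled and sublingual values differ by 1.13-fold (-0.18, error 0.21), which is within the software's error. Relative to the parotid, Duox2 was higher by at least 10.3-fold in the submandibular-labelled and by at least 9.13-fold in the sublingual sample. Here the size and the 4-fold call depend on how dim signals are treated: with normexp background correction the folds were at least 3.24 and at least 3.01, under 4-fold, and with the dim probe at its own value they were 22.7 and 20.1. The probe lies on chromosome 3 from 109059633 to 109059692 (rn4), 67.5 kilobases from that of Duox1.

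Both dual oxidase genes thus sit in 1 stretch of chromosome 3, yet Duox1 was highest on the array where Duox2 was not detected. Between them lies Duoxa1, the maturation factor of Duox1, whose probe covers 109082646 to 109082705 on that chromosome (rn4). Duoxa1 was present on all 3 arrays at signals of 33.7, 45.5 and 41.0. Its levels of -2.46, -2.33 and -2.57 differed by at most 1.19-fold. Duoxa1, named here as the partner of a member, did not share the parotid excess of Duox1. Its signals lay near those of the dimmest present probes (17.2, 19.1 and 18.3), which limits this comparison. No probe was matched to Duoxa2, so its level was not analysed. RefSeq start sites were used to show the sequence before each dual oxidase gene. For Duox1 it is the 250 bases before the start (GRCr8, plus strand, chr3:129715746-129715995). For Duox2 it is the 184 bases between its start and that of the divergent neighbour Duoxa2 (GRCr8, minus strand, chr3:129698754-129698937), again with motif matches in capitals:
Duox1 upstream: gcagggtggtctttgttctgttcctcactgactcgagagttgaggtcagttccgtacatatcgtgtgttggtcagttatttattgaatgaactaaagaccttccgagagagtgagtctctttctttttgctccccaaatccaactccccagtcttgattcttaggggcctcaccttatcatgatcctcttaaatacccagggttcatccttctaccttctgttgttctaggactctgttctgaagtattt
Duox2 upstream: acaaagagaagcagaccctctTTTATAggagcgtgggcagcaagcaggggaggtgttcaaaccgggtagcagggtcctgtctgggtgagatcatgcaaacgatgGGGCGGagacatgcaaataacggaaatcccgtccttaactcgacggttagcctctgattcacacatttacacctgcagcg
None of the 5 motifs occurs in the Duox1 window. In the Duox2 window TATAAA occurs on the other strand (in capitals as its reverse complement), with its first base 27 bases before the start of Duoxa2, and GGGCGG begins 80 bases before the start of Duox2. Windows of 184 bases hold TATAAA in 9.59% and GGGCGG in 27.8% of 33469 rat promoters. GC content was 45.6% for Lpo, 44.0% for Duox1 and 52.7% for Duox2, against a median of 51.2% for windows of 250 bases and 52.2% for 184.

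**Figure D2:**
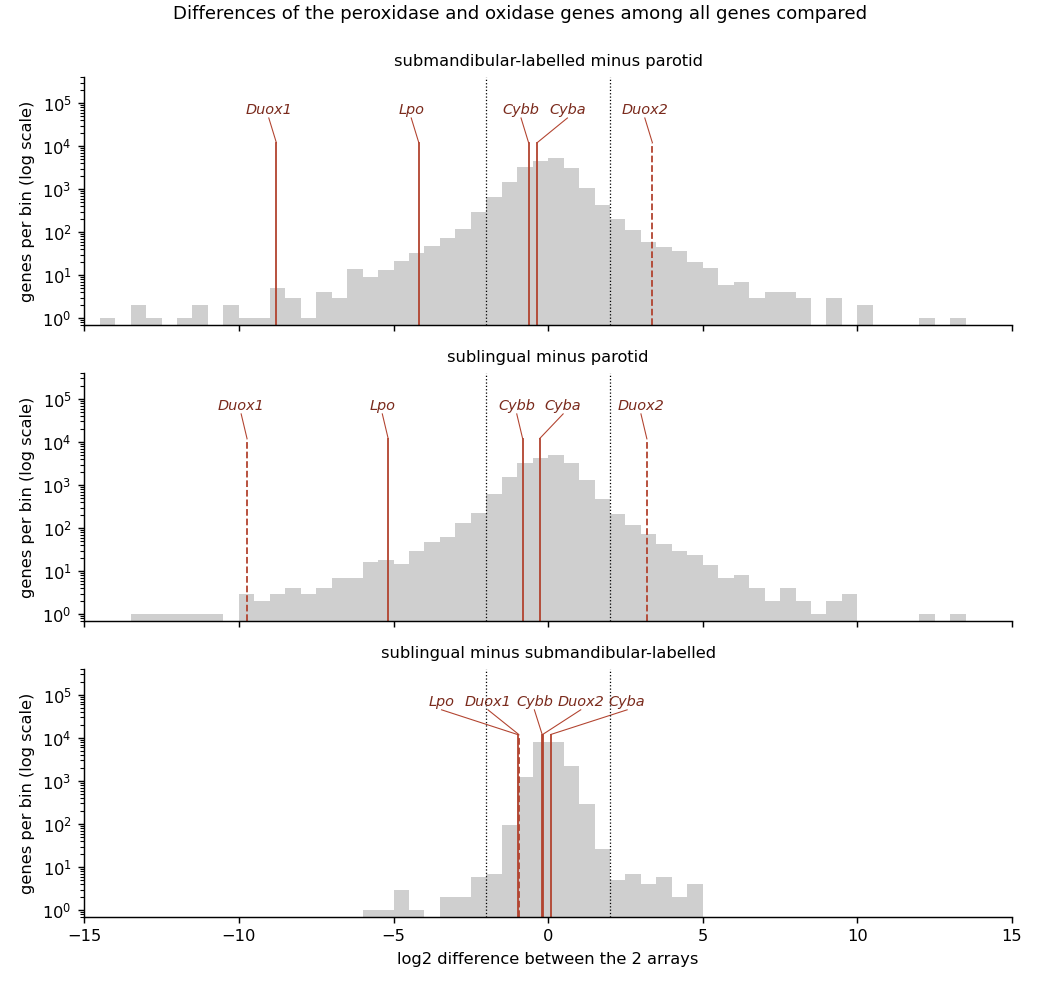
Number of gene names (vertical axis, log scale) by log2 difference between 2 arrays (horizontal axis) for the 3 pairs of arrays, with the 5 compared members as red lines, dashed where the value is a lower bound. Dotted lines mark 4-fold. Duox1 and Lpo lie in the left tail and Duox2 in the right tail of both parotid comparisons, and all 5 lie inside the dotted lines in the bottom panel.

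Cyba encodes the p22phox subunit that stabilises the catalytic subunits of several NADPH oxidases. Its signals were 1190, 1140 and 1290 on the parotid, submandibular-labelled and sublingual arrays, and its levels 2.68, 2.32 and 2.40. The parotid level was 1.28-fold and 1.21-fold above the other 2, and the sublingual level 1.06-fold above the submandibular-labelled one. These differences of -0.36, -0.28 and 0.08 compare with an error of 0.20. The first 2 depended on scaling, at -0.05 and -0.04 with median centring and -0.59 and -0.53 with quantile normalization, and stayed under 2-fold throughout.

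Cybb, the gp91phox subunit of phagocytes, had signals of 49.7, 39.3 and 36.8, all present. Its levels of -1.90, -2.54 and -2.73 gave 1.55-fold and 1.77-fold higher values in the parotid (log2 differences -0.63 and -0.83, with errors of 0.30 each). A separate probe that the files describe as gp91phox but do not name Cybb lies on chromosome X from 25514215 to 25514274 (rn4), near the Cybb probe at 25518505 to 25518564. It was named after its values were seen, and had levels of -0.49, -0.86 and -1.16, in the same order. With normexp correction the Cybb folds were 1.22 and 1.34.

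Most macrophage markers, like Cybb, were highest in the parotid. Of 9 monocyte and macrophage markers, 8 were lower on each of the other arrays than in the parotid (medians -0.49 and -0.54), none by 4-fold. Of all gene names compared, 49.7% and 51.0% were higher on these arrays. With median centring 7 of the 9 were lower (medians -0.18 and -0.30). Csf1r against the submandibular-labelled array (-0.05) and Mrc1 against the sublingual array (-0.11) were close to the parotid. The summed signal of the list relative to the 75th percentile was 65.0, 51.7 and 52.6. C1qb, a complement subunit made by macrophages and the brightest of the list, was at 4.58, 4.20 and 4.04, and Aif1, the exception, at 3.46, 3.62 and 3.99. Of 5 general leukocyte markers, 4 were lower on both arrays, with sums of 28.0, 20.2 and 19.5, Laptm5 and Coro1a among them, while Cd52 exceeded its parotid bound, by at least 12.4-fold and 16.9-fold. Among 9 neutrophil genes, Ctsg, Camp, Cxcr2, Csf3r, Fpr1 and Ltf were not well above background on any array, S100a8 and S100a9 were present on the parotid array only, and Prtn3, the 1 gene present on all arrays, was at -1.78, -1.95 and -2.07, within 1.22-fold. The neutrophil sums of 0.80, 0.42 and 0.48 include probes that were not well above background, so they carry no comparison. Of 5 eosinophil markers, Prg2 alone was present (-2.21, -2.86 and -3.09). The part of leukocytes in the Cybb difference was not tested.

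Nox1 and Nox4, catalytic subunits known from the colon and the kidney, were not detected. Nox1 signals were 6.16, 7.23 and 13.3 and those of Nox4 were 4.8, 5.22 and 5.08 on the parotid, submandibular-labelled and sublingual arrays. Software errors ran from 29.7% to 57.8% of the signal for Nox1 and from 95.4% to 99.8% for Nox4. For comparison, the dimmest present probes had signals of 17.2, 19.1 and 18.3. A low level of these genes is not excluded at this sensitivity. The position given for the Nox4 probe has its outer limits on chromosome 1 at 143584026 and 143586154 (rn4), and the files give no position for that of Nox1.

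The maturation factors and cytosolic partners of the oxidases differed by less than 4-fold from the parotid, except that median centring put 1 past 4-fold on the submandibular-labelled array. Of these partners, 6 were present on every array. Against the parotid, 4 of 6 were higher on the submandibular-labelled array (3 with normexp correction) and 3 of 6 on the sublingual array (4 with median centring or quantile normalization), with medians of 0.40 and 0.34. Rac2, the leukocyte GTPase of the phagocyte oxidase, was at -0.76, 1.15 and 0.99, which is 3.75-fold and 3.35-fold above the parotid. Rac1, its widely expressed relative, ran the other way at 3.87, 3.25 and 2.56, and its 2.48-fold difference between the parotid and sublingual arrays was 1.63-fold with the median of its probes. Noxa1, the activator subunit of the Nox1 system, was at 1.46, 2.12 and 2.25, a 1.59-fold and 1.73-fold higher level than in the parotid. Among other heme peroxidase family genes, Ptgs1, a cyclooxygenase, was present on all arrays (-0.68, -1.41 and -1.36), and Epx and Ptgs2 were present on none.

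Enzymes that remove hydrogen peroxide, or make it from superoxide, differed from the parotid in both directions, and 1 of 19 reached 4-fold. Beside this, 5.68% and 5.41% of all gene names compared were at least 4-fold from the parotid on the submandibular-labelled and sublingual arrays. On the submandibular-labelled array 11 of 19 were higher than in the parotid (median 0.24), beside 49.7% of all gene names compared. Over the processing choices the count was between 10 and 16, the 16 with median centring, where 62.9% of all gene names were higher. On the sublingual array 14 were higher (median 0.35), beside 51.0%. The count there was between 11 and 15, the 15 with median centring, where 61.6% of all gene names were higher. Prdx2, a cytosolic peroxiredoxin, was at 4.32, 6.39 and 6.71, which is 4.19-fold and 5.25-fold above the parotid. With quantile normalization it was under 4-fold on the submandibular-labelled array. Gpx1, the main cytosolic glutathione peroxidase, was 2.22-fold and 3.18-fold higher at levels of 6.17, 7.32 and 7.84. The dismutase Sod1 (6.33, 6.85 and 6.71) and thioredoxin, Txn1 (5.31, 5.55 and 6.03), differed by less than 2-fold. Catalase and the other peroxiredoxins probed stayed under 2-fold from the parotid as well.

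All 8 enzymes of heme synthesis, which supply the prosthetic group of peroxidases and oxidases, were higher on both other arrays than in the parotid, none by 4-fold (medians 0.52 and 0.48). Of all gene names compared, 49.7% and 51.0% were higher on these arrays. The count of heme enzymes was 7 with quantile normalization in either comparison, and 7 with normexp correction for the submandibular-labelled array. With median centring it was 8, with medians of 0.83 and 0.72. There, 62.9% and 61.6% of all gene names were higher. Alas1, the first and rate-limiting enzyme of the pathway, was at 4.23, 5.20 and 5.11, which is 1.97-fold and 1.85-fold higher. Alad followed at 6.22, 6.86 and 6.76, and Urod at 5.52, 5.93 and 5.95. Lpo itself ran in the opposite direction.

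Of the carriers and channels that can bring thiocyanate or iodide into saliva, 2 of 4 probed were present, and both were highest in the parotid. The calcium-activated anion channel Ano1 was at 0.58, -0.90 and -1.27, 2.80-fold and 3.62-fold higher in the parotid. Cftr, the chloride channel of duct cells, was at -1.93, -2.84 and -3.52, 1.88-fold and 3.01-fold higher there. The iodide and thiocyanate symporter Slc5a5 and the exchanger Slc26a4 were not well above background on any array. The Cftr folds depend on processing: they were 1.20 and 1.51 with normexp correction, and against the sublingual array 1.82 with the median of its 2 probes. Other duct markers did not all share its parotid excess. Of the 8 compared, Cftr included, 5 were higher on each other array than in the parotid (4 with the median of each gene's probes), while Ascl3 and Foxi1, transcription factors of ionocytes named after their values were seen, were lower with Cftr.

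**Figure D3:**
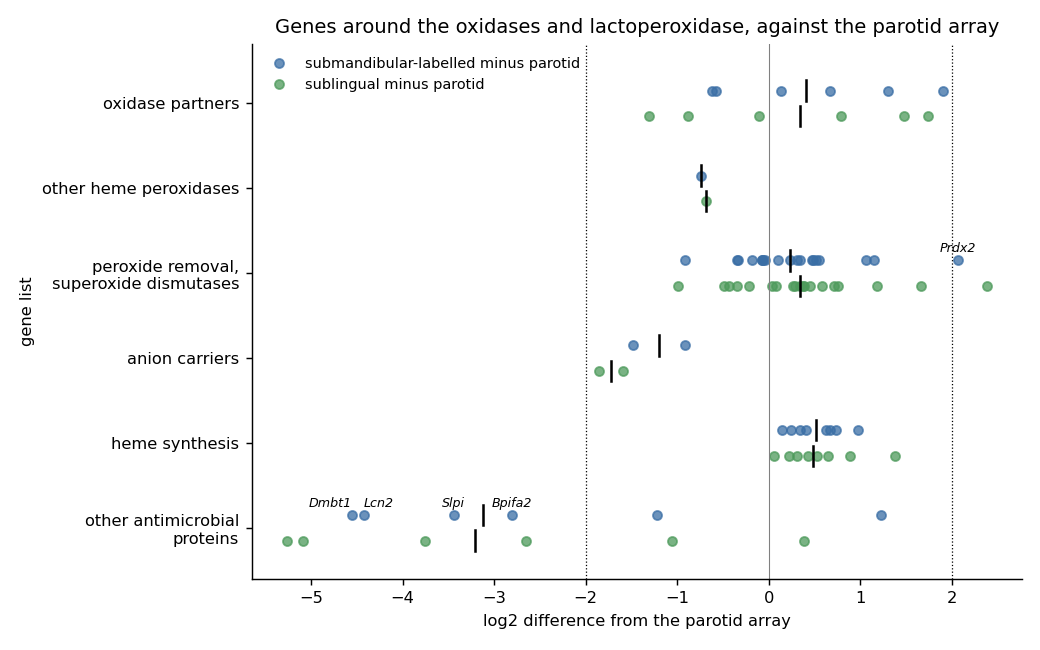
Log2 difference from the parotid array (horizontal axis) of the compared genes of 6 lists, for the submandibular-labelled array (blue) and the sublingual array (green). Black bars are list medians, dotted lines mark 4-fold, and genes past it are named. Of the antimicrobial proteins 4 of 6 lie left of the 4-fold line, Lyz2 lies inside it and Pigr right of 0, with medians of -3.12 and -3.20, heme synthesis lies to the right of 0, and Prdx2 is the only other named gene.

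Other antimicrobial proteins of saliva mostly had the direction of Lpo. Of 6 compared, 4 were at least 4-fold lower than in the parotid on each other array, and the medians were -3.12 and -3.20. The shares of all gene names compared were 3.13% for the submandibular-labelled and 2.76% for the sublingual array. Bpifa2, among the 4, was also counted above as a parotid serous product. All 4 rest on the same parotid array as Lpo, in a list chosen with earlier results of these data known. They are therefore not separate support for the direction of Lpo. Dmbt1, a bacteria-binding scavenger glycoprotein, was at 5.50, 0.95 and 0.23, and Lcn2, which binds bacterial siderophores, at 5.03, 0.61 and -0.06. Slpi, an inhibitor of leukocyte proteases, was 10.9-fold and 6.29-fold lower at 3.41, -0.03 and 0.76. Bpifa2, parotid secretory protein, was 6.98-fold and 13.5-fold lower at 10.16, 7.36 and 6.41. Lysozyme, Lyz2, was 2.33-fold and 2.08-fold lower. Pigr, the receptor that carries IgA into saliva, went the other way at 3.31, 4.54 and 3.70. Ltf and Camp, an iron-binding protein and a cathelicidin, were not present on any array.

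The genes whose levels across the 3 arrays were most like those of each differing member were found by Euclidean distance after centring each gene on its own mean over the 3 arrays, on the log2 scale. For Lpo, among 469 candidates out of the 2.3% of gene names that exceeded both other arrays by 4-fold or more in the parotid, they were a predicted transcript described as similar to a RIKEN cDNA (distance 0.10), Tmem26 (0.22) and Lcn2 (0.24). For Duox1, also among 469, they were a transcript described as carbonic anhydrase VI (0.13), the proline-rich glycoprotein gene Prb3 (0.29) and Pip (0.69). For Duox2, among 449 candidates out of the 2.21% in the opposite direction, they were Tcp11 (0.03), the laminin chain gene Lamb3 (0.05) and the sialyltransferase gene St6gal1 (0.08). These likenesses rest on 3 points each and, for Duox1 and Duox2, on a level held at the detection limit on 1 array. Candidates were already selected for the direction and size of the difference, and Prb3 and Pip were also among the parotid serous markers. The likenesses therefore add no support to the differences.

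**Figure D4:**
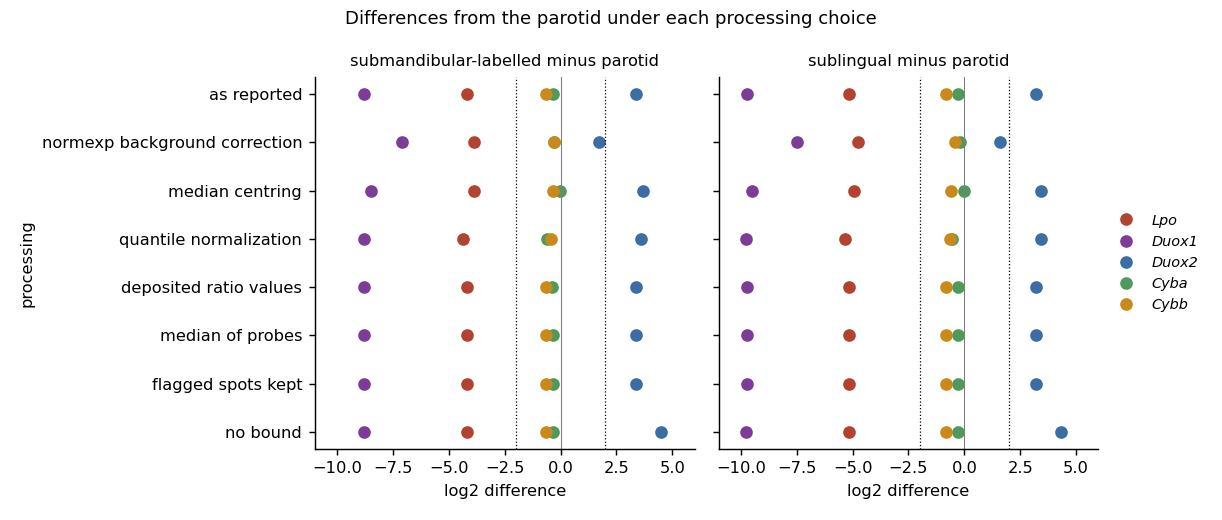
Log2 difference from the parotid array (horizontal axis) of Lpo, Duox1, Duox2, Cyba and Cybb under each processing choice (vertical axis), for the submandibular-labelled array on the left and the sublingual array on the right, with dotted lines at 4-fold. All 5 genes keep their side of 0 in every row. Duox2 moves inside the dotted lines with normexp background correction, at 1.70 and 1.59, and Duox1 moves from -8.79 to -7.11 and from -9.74 to -7.48.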

How the data were processed

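Per the labels' protocols, column-purified total RNA (500 ng) was amplified and labelled with Cy3. The authors' intensity values, per the file headers, were made with Agilent Feature Extraction 10.1.1.1 (protocol GE1-v5_10_Apr08, array design 014879, build rn4) with detrending on and low signals replaced by surrogates. All 3 arrays shared 1 slide and 1 scan time, so effects of the gland and of array position cannot be told apart. The series' deposited value table holds a linear ratio of unstated origin. By comparison with the scanner output it equals the processed signal divided by 190, 236 and 250 (parotid, submandibular, sublingual), within 0.0142 on the log2 scale for signals above 1000. Its column medians were 0.152, 0.122 and 0.128.

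Log2 processed signals were centred on each array's 75th percentile (signals of 186, 228 and 244). Control spots and 68, 79 and 73 flagged spots were removed, and repeat spots averaged. A gene name, without its suffix, was represented by its brightest probe (35727 names). For the gene lists, 19366 probes were matched to RefSeq symbols (GRCr8, for names only). Of each pathway list, genes past 4-fold and up to 3 others with the highest mean level are named. Other list genes and all markers named were chosen after their values were seen. The members and lists were chosen with earlier results of these data known. Counting was tested on simulated data with known changes. These were placed in gene names above the array's 75th percentile, so the rule for dim signals was not tested. The simulation held no variation between animals. Alternatives were normexp correction (offset 50), median centring, quantile normalization, the deposited ratios, the median of probes, flagged spots kept, no bound, and thresholds of 2-fold and 10-fold. Promoter sequences are RefSeq's. Some genes of the lists are not reported here. Python 3.11.15, numpy 2.4.6, pandas 2.3.3, matplotlib 3.10.9, R 4.3.3 and limma 3.58.1 were used.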

Additional observations from a re-analysis of the deposited data

Results flagged for a closer look

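A probe outside the set, whose description in the files names a weak match to an airway lactoperoxidase of sheep, gave signal well above background on 2 arrays. Its level was -1.77 for the submandibular-labelled and -2.11 for the sublingual sample, and it was not well above background on the parotid array (-3.63), at least 3.17-fold and at least 2.51-fold apart. Unlike Lpo, it was lowest on the parotid array. Its position is chromosome 16 from 3800884 to 3800943 (rn4), while the Lpo probe lies on chromosome 10.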

How the results depend on the processing

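Of the 7 processing alternatives, the median of probes and the flagged spots kept could not move a member, since each had 1 probe and no flagged spot. The deposited ratios, a rescaled processed signal, could move members only slightly. Leaving out the bound could only keep or enlarge a difference. With these agreements, fixed in advance, counted in, all 105 differences of members kept their sign. Likewise, 40 of 42 values of differences at least 4-fold apart stayed so. The exceptions were both of Duox2 with normexp background correction. There, 0 members exceeded the parotid by 4-fold, on either the submandibular-labelled or the sublingual array. Apart from these values, at a 10-fold threshold 0 members were higher on the sublingual array than in the parotid. The counts of members at least 4-fold lower were the same under every alternative and threshold. Counts of gene names at least 4-fold apart moved more. For the submandibular-labelled against the parotid array the count was 1174, and 527 with normexp correction, 1965 without the bound, 4804 at 2-fold and 350 at 10-fold. For the sublingual against the parotid array it was 1132, and 535, 1839, 5054 and 353 in the same order. Between the sublingual and submandibular-labelled arrays it was 44, and 20, 138, 457 and 20. Signal over background limits Duox1 on the sublingual array, Duox2 on the parotid array, and Mpo, Nox1 and Nox4 on all 3 arrays, and 1 array per gland limits every value.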
